A study of Mus musculus with 6 samples.

Results

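Pyruvate is the branch point of hepatic glucose metabolism. The 10 genes described here, Pdha1, Pdhb, Dlat, Pdk1, Pdk2, Pdk4, Pdp1, Pdp2, Mpc1 and Mpc2, encode catalytic subunits of the mitochondrial pyruvate dehydrogenase complex, the kinases and phosphatases that act on it, and the mitochondrial pyruvate carrier. They were chosen by name, with earlier results of these data known, from the 21362 genes of the deposited FPKM table (fragment numbers corrected for transcript length and library depth). All 10 had enough counts to be tested, among 13431 genes tested.

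Bulk RNA-seq was performed on livers of Mettl14f/f male mice that were on a high fat diet (HFD) from 8 weeks of age and received an AAV8 vector by tail vein after 10 weeks of feeding. Livers were taken 8 weeks after AAV8-TBG-GFP (labelled WT, n = 3) or AAV8-TBG-Cre (labelled METTL14 KO, n = 3). All 6 mice carried floxed Mettl14 alleles and ate HFD, so no lean or non-floxed liver is in the comparison. The thyroxine-binding globulin (TBG) promoter drives Cre or GFP in hepatocytes, while the RNA came from whole liver, where fewer cells of a type and less RNA per cell cannot be told apart. The labels do not give the feeding state at collection.

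The complex decarboxylates pyruvate and hands the acetyl group to coenzyme A, which commits carbon to the tricarboxylic acid (TCA) cycle or to lipid synthesis and takes it away from gluconeogenesis. Pyruvate dehydrogenase kinases phosphorylate the E1 alpha subunit and switch the complex off, and pyruvate dehydrogenase phosphatases remove that phosphate. In the fasted liver the kinases hold the complex inactive while pyruvate entering through the carrier is carboxylated to oxaloacetate for glucose synthesis. These activities are set largely on the protein, which was not measured here.

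Depth lay between 20356440 and 21010508 summed gene counts per library, and the hepatocyte markers (Alb, Apoa1, Ttr, Serpina1a, Cps1, Asgr1, Hnf4a and Tat) were all detected. Mettl14, the targeted gene, was at 6.30, 6.43 and 5.81 TMM-normalised CPM (counts scaled to library size with trimmed-mean factors) in AAV8-TBG-GFP livers and at 4.96, 5.38 and 4.86 CPM in AAV8-TBG-Cre livers. Its groups did not overlap in CPM, but the difference did not pass the test (log2 fold change -0.29, SE 0.15, edgeR quasi-likelihood Benjamini-Hochberg adjusted p = 0.337), and its FPKM values overlapped. The counts cover the whole gene, retained exons included, and are from all liver cells, so the groups below are named by their vector. The library names had a short form in 3 libraries, replicate 1 of AAV8-TBG-Cre and replicates 1 and 2 of AAV8-TBG-GFP, and a longer form in the other 3, and the labels do not say what the form stands for. AAV8-TBG-Cre replicate 2 had the highest scaling factor (1.18, against 0.913 to 1.02 in the others).

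Of the 10 genes, 5 were called lower in AAV8-TBG-Cre livers (Pdha1, Dlat, Pdk1, Pdp2 and Mpc1), which means an unadjusted p under 0.05 in edgeR's quasi-likelihood test and a change of 1.2 times or more. The same call was made for 8.41% of all genes tested. One phosphatase gene, Pdp1, was called higher, as were 12.0% of all genes. None of the 10 passed an adjusted p under 0.05 in edgeR, which 0.931% of all genes did, while 6 of them passed at the unadjusted threshold. DESeq2 placed 3 (Pdha1, Pdp1 and Mpc1) under an adjusted p of 0.05, and 7.44% of all genes to which it gave an adjusted p. The groups did not overlap, with AAV8-TBG-Cre lower, for Pdha1, Dlat and Mpc1 (13.0% of all genes), and with AAV8-TBG-Cre higher for Pdp1 (14.0% of all genes). The median log2 fold change was -0.33 over the 10 genes and -0.0065 over all genes tested, and 8 of the 10 estimates were negative.

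**Figure D1:**
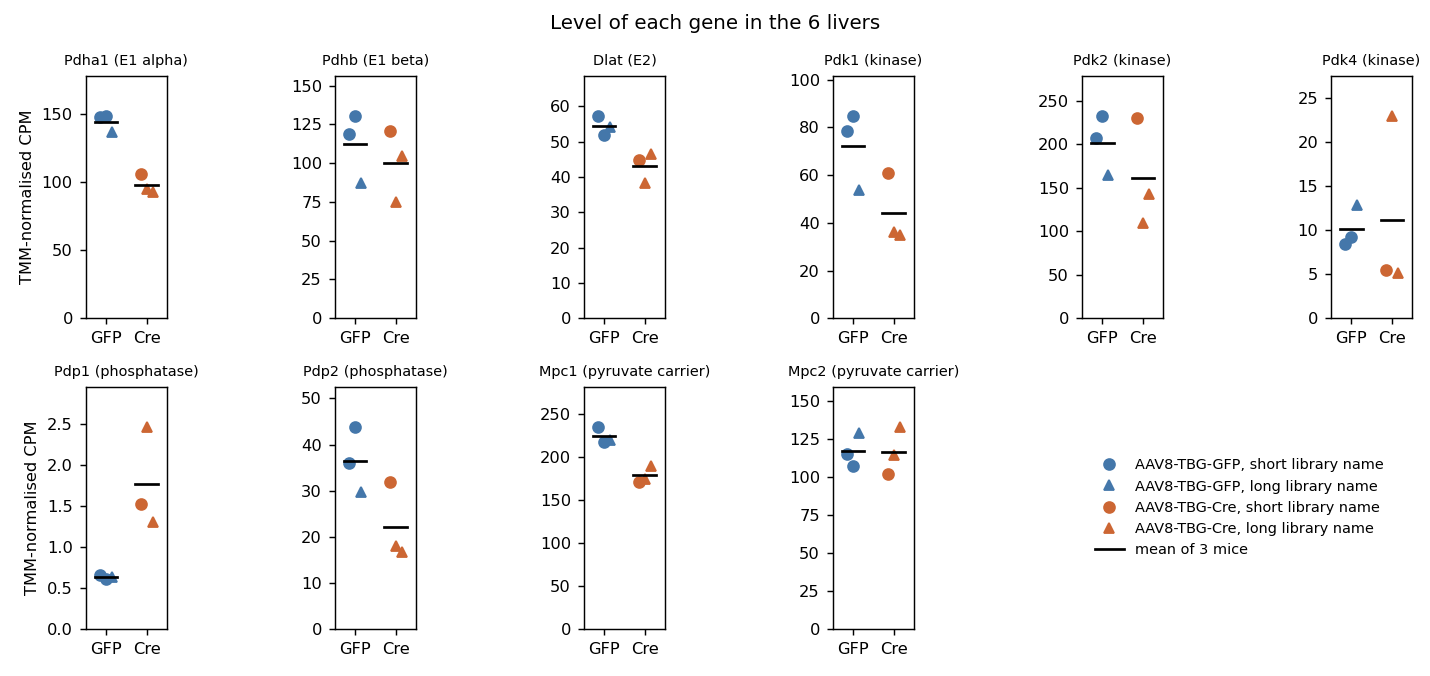
TMM-normalised CPM (y axis, from 0) of each gene in the 3 AAV8-TBG-GFP and 3 AAV8-TBG-Cre livers. Points are single livers, circles and triangles are the short and long library names, and lines are means of 3 mice. Pdha1, Dlat and Mpc1 lie lower and Pdp1 higher in every AAV8-TBG-Cre liver, and Pdk4 is high in AAV8-TBG-Cre replicate 2 alone.

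Pdha1 (chrX:160122219-160138430, GRCm38.p6, minus strand), the X-linked E1 alpha subunit that carries the regulatory phosphorylation sites, had the smallest p-value of the 10 genes. It was at 147.9, 148.5 and 136.6 CPM in AAV8-TBG-GFP livers and at 105.7, 94.7 and 92.9 CPM in AAV8-TBG-Cre livers. Every AAV8-TBG-Cre liver was below every AAV8-TBG-GFP liver, with means of 97.7 ± 6.92 and 144.4 ± 6.74 CPM (SD, n = 3 each). Pdha1 was called lower, with a log2 fold change of -0.56 (SE 0.11, edgeR adjusted p = 0.0581), to 0.677 of the control mean. The groups were separate in FPKM as well, at 43.1 to 49.4 in controls and 31.8 to 38.6 in AAV8-TBG-Cre livers. Pdha1 was called lower in all 16 alternative fits, with adjusted p between 0.000111 in DESeq2 and 0.202 in edgeR without AAV8-TBG-GFP replicate 2. Its difference was similar in size within the short-named libraries (log2 ratio -0.49, with a single AAV8-TBG-Cre liver) and the long-named ones (-0.54, with a single control).

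METTL14 and METTL3 place N6-methyladenosine (m6A) on mRNA in short contexts of which GGACT is a common form, and GGACT is shown here (in capitals) for Pdha1, which had the smallest p-value, and for Mpc1, which had the most matches per length. The Pdha1 transcript nearest the RefSeq length in GENCODE vM1 (2848 bases) holds 3 matches, 2 in coding exon 7 of 11 and 1 in the 3′ UTR. The first and the last lie at chrX:156565532-156565552 and chrX:156560950-156560970 (NCBIM37, minus strand). The other window runs across the end of exon 7, with its central A at position 156565511.
Pdha1 site 1: gccagcacGGACTactacaaa
Pdha1 site 2: ttattcctGGACTcagggtag
Pdha1 site 3: ggtgtaggGGACTttttgccc
The Mpc1 transcript (920 bases) holds 3 matches, all in coding exon 1 of 5, within chr17:8476777-8476824 (NCBIM37, plus strand).
Mpc1 site 1: aaagcggcGGACTatgtccgg
Mpc1 site 2: cggagcaaGGACTtccgggac
Mpc1 site 3: gacttccgGGACTatctcatg
All 10 genes held a GGACT, as did 83.01% of 22754 protein-coding genes. The density ran from 0.476 matches per kb in Pdp1 to 3.26 in Mpc1, around a median of 1.02 over all genes. The share and median over all genes are for the longest protein-coding transcript of each gene. Values of the 10 genes are for the transcript nearest the RefSeq length, so the 2 are not chosen alike. The density was 1.05 per kb in Pdha1, 0.743 in Dlat and 2.93 in Mpc2, whose level hardly differed between the vectors. Methylation was not measured in these libraries, and a match is not a methylated site.

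Pdhb (chr14:8165991-8173303), the E1 beta subunit that pairs with E1 alpha, was at 118.9, 130.2 and 86.9 CPM in AAV8-TBG-GFP livers and at 120.6, 74.8 and 104.3 CPM in AAV8-TBG-Cre livers. The groups overlapped widely, and the log2 difference of -0.16 (SE 0.21, edgeR adjusted p = 0.710) was smaller than its error. It became 0.0020 without AAV8-TBG-Cre replicate 2. In FPKM, the ratio of Pdha1 to Pdhb within a liver was 0.635, 0.583 and 0.803 in controls and 0.447, 0.647 and 0.455 in AAV8-TBG-Cre livers. The ratio overlapped between groups, in AAV8-TBG-Cre replicate 2 alone (log2 difference -0.39, exact two-sided permutation p = 0.3, where 0.1 is the smallest p that 3 against 3 allows). It was -0.26 without AAV8-TBG-GFP replicate 3 and -0.57 without AAV8-TBG-Cre replicate 2.

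Dlat (chr9:50634633-50659780), the E2 dihydrolipoamide acetyltransferase that forms the core of the complex, was at 57.2, 51.9 and 54.2 CPM in AAV8-TBG-GFP livers and at 44.8, 38.4 and 46.5 CPM in AAV8-TBG-Cre livers. The groups did not overlap, and Dlat was called lower with a log2 fold change of -0.33 (SE 0.11, unadjusted p = 0.0157 in edgeR, adjusted p = 0.146). The call was lost without AAV8-TBG-GFP replicate 1 (log2 fold change -0.30, edgeR adjusted p = 0.342) and without AAV8-TBG-Cre replicate 2, where the fold change fell short of 1.2 (-0.26). It was also lost in the limma fits to FPKM. In the filtered fit on log2(FPKM + 1) the median of all genes was at 0.11 (log2), up from near 0, and Dlat stood at -0.16. On log2(FPKM + 0.1) these were 0.14 and -0.17.

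Of the subunits outside the 10 genes, Pdhx, the E3-binding protein, was at 31.4, 32.6 and 30.1 CPM in controls and at 25.6, 22.0 and 25.0 CPM in AAV8-TBG-Cre livers. Pdhx was called lower with separate groups (log2 fold change -0.37, SE 0.10, edgeR adjusted p = 0.101). Dld, the E3 dihydrolipoamide dehydrogenase that the complex shares with its sister enzymes, had means of 112.4 ± 4.89 and 98.2 ± 10.6 CPM (SD, n = 3 each) and a log2 difference of -0.20 (edgeR adjusted p = 0.389). Pdha2, the testis form of E1 alpha, had no count in any library.

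**Figure D2:**
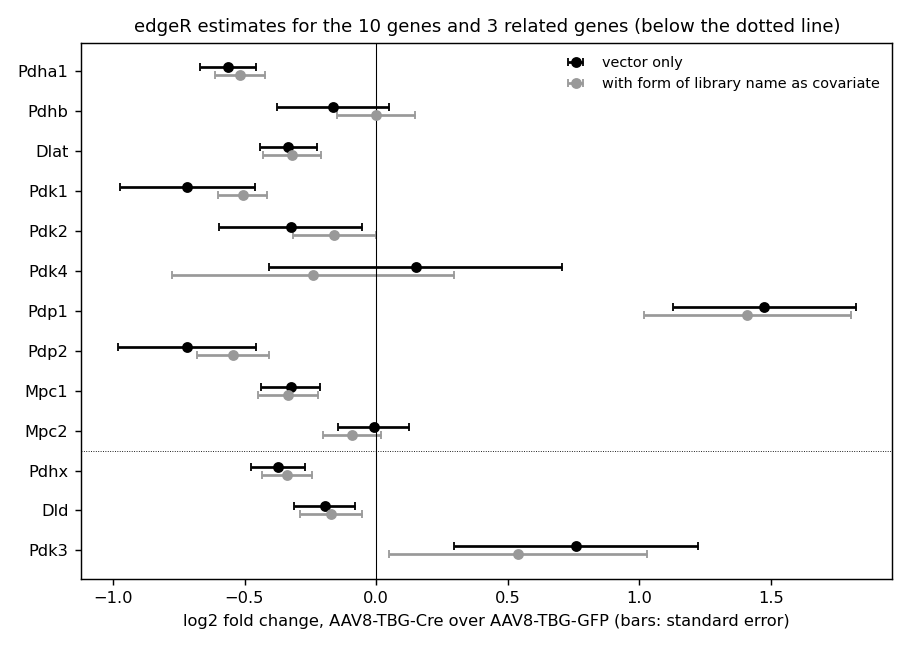
log2 fold change of AAV8-TBG-Cre over AAV8-TBG-GFP (x axis) with its standard error (bars) for the 10 genes and for Pdhx, Dld and Pdk3 below the dotted line. Black is the fit on vector alone and grey the fit that also holds the form of the library name, in which the error of Pdk1 falls from 0.26 to 0.094.

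The 3 kinase genes did not share a pattern. Pdk1 (chr2:71873215-71903858), a kinase known as a target of hypoxia signalling, was at 78.5, 84.7 and 53.6 CPM in AAV8-TBG-GFP livers and at 60.8, 36.2 and 34.9 CPM in AAV8-TBG-Cre livers. AAV8-TBG-GFP replicate 3 lay among the AAV8-TBG-Cre livers, below their replicate 1. Pdk1 was called lower, with a log2 fold change of -0.72 (SE 0.26, unadjusted p = 0.0240 in edgeR, adjusted p = 0.173). The call was lost in edgeR without AAV8-TBG-GFP replicate 1 (log2 fold change -0.66) or 2 (-0.59) and without AAV8-TBG-Cre replicate 2 (-0.60) or 3 (-0.58). Without AAV8-TBG-Cre replicate 1 it was -1.03, with an edgeR adjusted p of 0.0370.

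Pdk2 (chr11:95026258-95041371), the main kinase of the liver, was at 207.7, 232.2 and 164.7 CPM in AAV8-TBG-GFP livers and at 230.2, 109.3 and 143.2 CPM in AAV8-TBG-Cre livers. AAV8-TBG-Cre replicate 1 stood among the highest livers of both groups and the other 2 below all controls. The log2 difference of -0.33 (SE 0.27, edgeR adjusted p = 0.542) did not pass the test. Without AAV8-TBG-Cre replicate 1 it was -0.68 and was called (unadjusted p = 0.0102 in edgeR, adjusted p = 0.0783).

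Pdk4 (chr6:5483351-5496278), the kinase that fasting, glucocorticoids and PPAR alpha ligands induce, was at 8.44, 9.18 and 12.8 CPM in AAV8-TBG-GFP livers and at 5.54, 23.0 and 5.10 CPM in AAV8-TBG-Cre livers. Replicate 2 was the highest of all 6 libraries, with 559 counts, while AAV8-TBG-Cre replicates 1 and 3, with 116 and 106 counts, were the lowest. Over all livers the log2 difference was 0.15 (SE 0.56, edgeR adjusted p = 0.904). Without AAV8-TBG-Cre replicate 2 it was -0.93 (SE 0.23, unadjusted p = 0.00527 in edgeR, adjusted p = 0.151), and without replicate 3 it was 0.49, so the direction of Pdk4 was set by 1 liver. It also turned negative once library name form entered the fit (-0.24). Pdk3, the remaining kinase gene, had 10 to 14 counts in 5 libraries and 41 in the same AAV8-TBG-Cre replicate 2.

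The 2 phosphatase genes moved in opposite directions. Pdp1 (chr4:11958183-11966450), the calcium-stimulated phosphatase most abundant in muscle, was at 0.66, 0.61 and 0.63 CPM in AAV8-TBG-GFP livers and at 1.53, 2.46 and 1.30 CPM in AAV8-TBG-Cre livers. Every AAV8-TBG-Cre liver was above every control, and Pdp1 was called higher with a log2 fold change of 1.47 (SE 0.35, edgeR adjusted p = 0.0796). These levels rest on 13, 12 and 12 counts in controls and 32, 60 and 27 in AAV8-TBG-Cre livers, at the 9.78 percentile of mean CPM among genes tested, and the expected counts were divided unevenly among transcripts that differ little in length. The log2 fold change stayed between 1.146 and 1.647 when each library was left out. Pdp1 was too low in FPKM to enter the limma fits that were filtered on FPKM.

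Pdp2 (chr8:104591472-104599026), the insulin-responsive phosphatase of liver and fat, was at 35.9, 43.8 and 29.7 CPM in AAV8-TBG-GFP livers and at 31.9, 18.1 and 16.6 CPM in AAV8-TBG-Cre livers. The groups overlapped because replicate 1 of AAV8-TBG-Cre exceeded replicate 3 of AAV8-TBG-GFP. Pdp2 was called lower, with a log2 fold change of -0.72 (SE 0.26, unadjusted p = 0.0267 in edgeR, adjusted p = 0.181). The call was lost in edgeR without AAV8-TBG-GFP replicate 1 (-0.74, SE 0.31) or 2 (-0.57) and without AAV8-TBG-Cre replicate 2 (-0.59) or 3 (-0.55), and without AAV8-TBG-Cre replicate 1 it was -1.08 with an adjusted p of 0.0280.

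**Figure D3:**
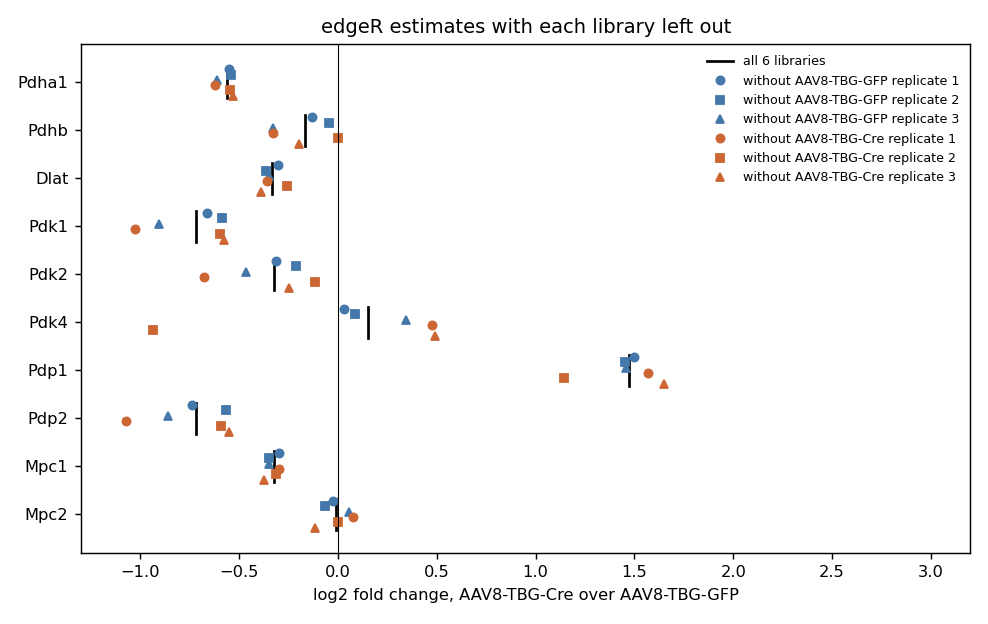
log2 fold change of AAV8-TBG-Cre over AAV8-TBG-GFP (x axis) in edgeR for each gene with all 6 libraries (black line) and with each library left out in turn (symbols). Pdk4 ranges from -0.93 to 0.49, while Pdha1 stays between -0.62 and -0.53.

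Mpc1 and Mpc2 encode the 2 proteins that together form the mitochondrial pyruvate carrier. Mpc1 (chr17:8283787-8297667) was at 235.0, 217.0 and 219.8 CPM in AAV8-TBG-GFP livers and at 171.1, 174.9 and 190.1 CPM in AAV8-TBG-Cre livers. The groups were separate in CPM, and Mpc1 was called lower (log2 fold change -0.33, SE 0.11, unadjusted p = 0.0198 in edgeR, adjusted p = 0.160). In FPKM they overlapped, since AAV8-TBG-Cre replicate 2 was at 232.0 and AAV8-TBG-GFP replicate 3 at 225.8, and the call was lost in the limma fits and, in edgeR, without AAV8-TBG-GFP replicate 1 (-0.30, edgeR adjusted p = 0.382).

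Mpc2 (chr1:165461260-165481218) was at 115.1, 107.3 and 128.7 CPM in AAV8-TBG-GFP livers and at 102.0, 114.2 and 132.7 CPM in AAV8-TBG-Cre livers. The groups overlapped throughout, and the log2 difference was -0.0093 (SE 0.13, edgeR adjusted p = 0.980), with a sign that changed with the scaling. The FPKM ratio of Mpc1 to Mpc2, which does not depend on the scaling of a library, was 1.92, 1.90 and 1.60 in controls and 1.58, 1.44 and 1.35 in AAV8-TBG-Cre livers. The ratio was lower in every AAV8-TBG-Cre liver (log2 difference -0.31, exact two-sided permutation p = 0.1, the smallest possible here).

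FPKM, which is per length, allowed the genes to be ordered within a liver. In AAV8-TBG-GFP livers Mpc1 was the most abundant (237.9 ± 15.7 FPKM, SD, n = 3), followed by Mpc2 (132.1 ± 9.33), Pdk2 (83.3 ± 15.8), Pdhb (71.7 ± 15.9) and Pdha1 (47.1 ± 3.49). Pdk1 (13.0 ± 3.23), Dlat (12.5 ± 0.826) and Pdp2 (9.72 ± 2.05) came next, then Pdk4 (2.73 ± 0.549) and Pdp1 (0.140 ± 0.010). Pdk2 and Pdhb overlapped over these livers, as did Pdk1 with Dlat and with Pdp2, whereas the other neighbours in this order were separate. In AAV8-TBG-Cre livers the order was kept except that the mean of Dlat (11.1 ± 0.0902) was above that of Pdk1 (8.80 ± 2.68), with overlapping ranges, and Pdk4 (3.61 ± 3.60) came to overlap with Pdp2 (6.60 ± 2.33) through AAV8-TBG-Cre replicate 2. Pdk2 and Pdhb overlapped there too, as did Pdk1 and Pdp2.

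**Figure D4:**
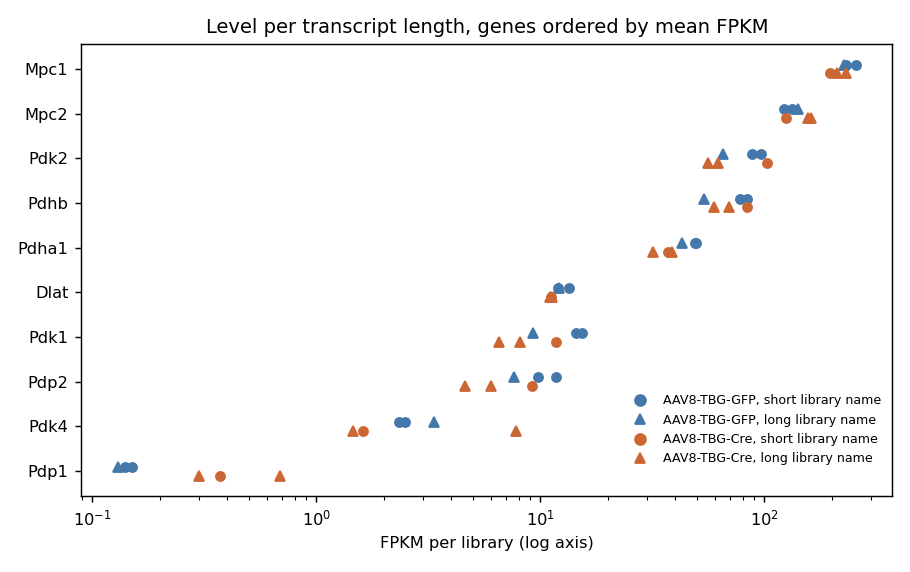
FPKM of each gene in each liver (x axis, log scale), genes ordered by mean FPKM. Points are single livers. Mpc1 is the most abundant and Pdp1 the least in both groups, and the 3 AAV8-TBG-Cre values of Pdp1 lie above the 3 controls.

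Taking the regulators as a balance, the summed FPKM of Pdk1, Pdk2 and Pdk4 over that of Pdp1 and Pdp2 was 10.5, 9.61 and 10.1 in AAV8-TBG-GFP livers and 12.2, 10.8 and 14.2 in AAV8-TBG-Cre livers. The ratio was higher in every AAV8-TBG-Cre liver (log2 difference 0.29, exact two-sided permutation p = 0.1, the smallest possible here). Leaving out AAV8-TBG-Cre replicate 3 gave a difference of 0.19, and leaving out replicate 2 gave 0.38. Pdk2 and Pdp2 were the most abundant gene of each kind, and the ratio concerns mRNA only. Mean FPKM was lower in AAV8-TBG-Cre livers for Pdk2 (73.6 against 83.3), Pdk1 (8.80 against 13.0) and Pdp2 (6.60 against 9.72). It was higher for Pdk4 (3.61 against 2.73) and Pdp1 (0.453 against 0.140). A higher ratio is thus not by itself more kinase mRNA. Within the kinases, the ratio of Pdk4 to Pdk2 was 0.0267, 0.0259 and 0.0511 in controls and 0.0158, 0.138 and 0.0234 in AAV8-TBG-Cre livers (log2 difference 0.18, exact two-sided permutation p = 1). Pdk2 thus exceeded Pdk4 in all 6 livers. Without AAV8-TBG-Cre replicate 2 the difference of the Pdk4 to Pdk2 ratio was -0.77.

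**Figure D5:**
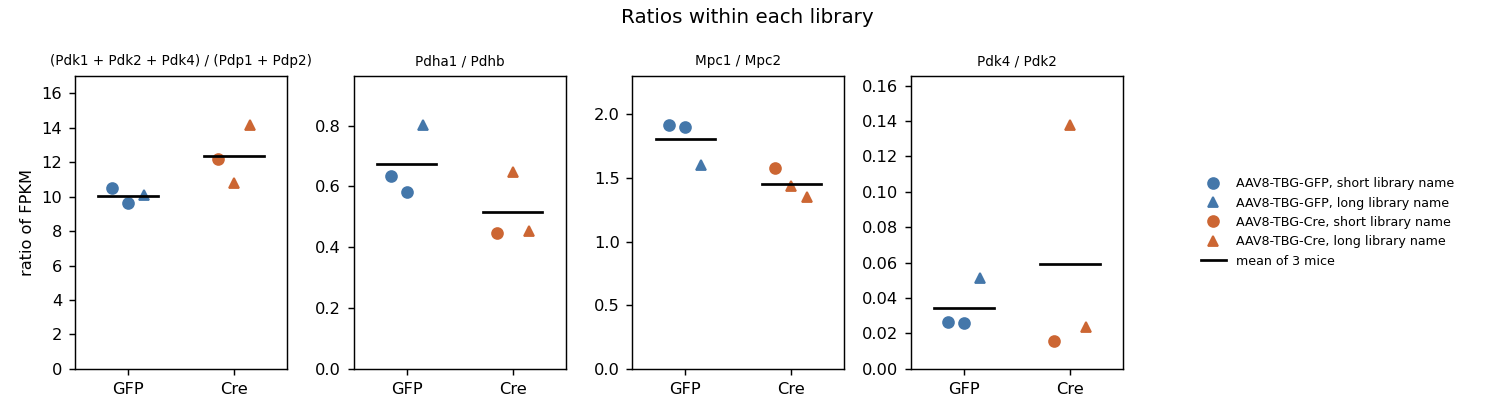
Ratios of FPKM within each liver (y axes, from 0) for kinases over phosphatases, Pdha1 over Pdhb, Mpc1 over Mpc2 and Pdk4 over Pdk2. Points are single livers and lines are means of 3 mice. The kinase to phosphatase ratio is higher and the Mpc1 to Mpc2 ratio lower in each AAV8-TBG-Cre liver, and Pdk4 over Pdk2 reaches 0.138 in AAV8-TBG-Cre replicate 2.

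The levels of 4 genes differed with the form of the library name. In a fit with vector and name form together, Pdhb, Pdk1, Pdk2 and Pdp2 were called lower in long-named libraries (7.79% of all genes) and none of the 10 was called higher (8.11% of all genes). Pdk1 had the smallest p (log2 difference, long minus short, -0.69, SE 0.094, edgeR adjusted p = 0.0284). Pdp2 (-0.65, adjusted p = 0.0731), Pdk2 (-0.64, adjusted p = 0.107) and Pdhb (-0.48, adjusted p = 0.172) followed, and each of the 4 was lower in all 3 long-named libraries than in all 3 short-named ones (11.2% of all genes). The long-named libraries hold 2 of the 3 AAV8-TBG-Cre livers and 1 of the 3 controls, so name form and vector are partly confounded.

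With the name form held, the same test of vector called Pdha1, Dlat, Pdk1, Pdp2 and Mpc1 lower (8.82% of all genes) and Pdp1 higher (10.6% of all genes), none with an adjusted p under 0.05 in edgeR. The log2 fold change of Pdk1 was then -0.51 (SE 0.094, edgeR adjusted p = 0.0515) and that of Pdp2 -0.54 (SE 0.14, adjusted p = 0.0946). Within the short-named libraries the log2 ratio of AAV8-TBG-Cre to AAV8-TBG-GFP was -0.42 for Pdk1 and -0.32 for Pdp2, and within the long-named ones it was -0.59 and -0.78. Pdk2 was at 0.066 among the short-named and at -0.38 among the long-named libraries, and Pdk4 at -0.67 and 0.13. Each of these ratios rests on a single liver on one side, AAV8-TBG-Cre replicate 1 (short) or AAV8-TBG-GFP replicate 3 (long). For Pdk4 the long-named AAV8-TBG-Cre livers were at 23.0 and 5.10 CPM, with the long-named control between them at 12.8 CPM.

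Among the 10 genes, Pdk2 and Pdp2, which act on the complex in opposite directions, had a promoter with an E-box (CACGTG, in capitals, which reads the same on both strands), and those promoters are printed. Pdhb and Pdk1, the other two genes that were lower in long-named libraries, had none. RefSeq promoters (250 bases before to 50 after a start) on GRCm38.p6 were found for 9 of the 10 genes, Pdp1 being the exception. Of the 2 promoters of Pdk2, the one printed lies at chr11:95041322-95041621 (minus strand), and the other, chr11:95040826-95041125, holds no E-box. The Pdp2 promoter lies at chr8:104591222-104591521 (plus strand).
Pdk2 promoter: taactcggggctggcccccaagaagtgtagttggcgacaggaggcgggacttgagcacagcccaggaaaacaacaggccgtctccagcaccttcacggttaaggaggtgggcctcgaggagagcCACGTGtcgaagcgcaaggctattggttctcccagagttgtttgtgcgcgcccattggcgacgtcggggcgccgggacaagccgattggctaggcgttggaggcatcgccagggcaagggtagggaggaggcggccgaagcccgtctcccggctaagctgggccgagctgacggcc
Pdp2 promoter: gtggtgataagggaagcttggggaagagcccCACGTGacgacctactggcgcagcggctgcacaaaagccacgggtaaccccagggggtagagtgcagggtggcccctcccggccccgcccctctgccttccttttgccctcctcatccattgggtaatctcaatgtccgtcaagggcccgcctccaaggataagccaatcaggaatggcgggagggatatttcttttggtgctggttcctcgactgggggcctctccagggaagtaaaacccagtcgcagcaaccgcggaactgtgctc
CACGTG was in 2 of the 12 promoters of these genes and in 7.15% of 32851 promoters of the same length. CCAAT was in 6 of the 12 promoters (37.4% of all) and GGGCGG in 7 (35.7% of all), each searched on both strands. AGGTCA, the half-site of nuclear receptors, was in 1, an Mpc1 promoter (16.3% of all), and GCGCATG, the core of the NRF1 motif, in none (3.91% of all). These matches are letters in a window and say nothing of binding.

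The pathways around the complex were described by lists of genes. In the same test 8.41% of all genes were called lower and 12.0% higher, the shares to set beside each list below. Of 4 further regulators tested, 2 were called lower, the mitochondrial deacylases Sirt3 (log2 fold change -0.30) and Sirt4 (-0.33). Of 6 genes of lipoic acid attachment, the cofactor of E2, Lias, the lipoyl synthase, was called lower (22.0 ± 1.64 against 29.2 ± 1.66 CPM, SD, n = 3 each, log2 fold change -0.40), as was Mcat (-0.28), which feeds mitochondrial fatty acid synthesis. Of 8 genes of the sister dehydrogenases, Bckdk, the kinase of the branched-chain complex, was called lower (-0.45). The median log2 fold changes of these 3 lists were -0.28, -0.13 and -0.11.

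Among 13 genes of pyruvate supply and its other fates, 2 were called higher and 2 lower, around a median of 0.018. Me1, the cytosolic malic enzyme that makes pyruvate and NADPH, was at 214.9 ± 35.5 CPM in controls and 93.2 ± 2.17 CPM in AAV8-TBG-Cre livers (log2 fold change -1.21, edgeR adjusted p = 0.0330). Ldhd, which oxidises D-lactate to pyruvate, was also called lower (-0.72). Pkm, the pyruvate kinase of most cells other than hepatocytes, was called higher (35.7 ± 15.4 against 19.5 ± 3.23 CPM, log2 fold change 0.87), as was the mitochondrial malic enzyme Me2 (0.70).

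Of 17 TCA cycle genes 14 had negative estimates, with a median of -0.14 against -0.0065 over all genes tested. Small estimates depended on the scaling. Mean FPKM of Ogdh, Dlst and Mdh2, among others with negative estimates, was higher in AAV8-TBG-Cre livers, so the signs do not show a fall of the cycle as a whole. Cs, the citrate synthase that takes up the acetyl-CoA of the complex, was at 174.6 ± 4.64 and 137.6 ± 7.65 CPM and was called lower (log2 fold change -0.34, edgeR adjusted p = 0.132), as was Idh3g (-0.27). For both genes the groups were separate in CPM and overlapped in FPKM. Idh2, the NADP-dependent isocitrate dehydrogenase, was called higher (0.57). Of 6 genes that export or use acetyl-CoA, the mitochondrial acetyl-CoA synthetase Acss1 was called higher from 0.274 to 0.904 CPM. Acss1 rested on 5, 7 and 4 counts in controls and on 12, 38 and 12 in AAV8-TBG-Cre livers. The other 5 genes had negative estimates that were not called. With the name form in the fit, Acacb (-0.86) and Acss2 (-0.36), which use acetyl-CoA and make it from acetate, were called lower and Lipt2, of the lipoic acid list, higher (0.92), and the calls of Idh3g, Me2, Sirt3 and Mcat were lost. None of 12 genes whose mRNA was taken as a reference for mitochondrial mass, such as Vdac1 and Tomm20, was called in either direction. Their median log2 fold change was -0.047, and mitochondrial mass itself was not measured.

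For Pdk4, 9 known regulators and a list of genes that fasting induces along with it were examined. Of the regulators, Ppara (418.0 ± 40.8 against 597.7 ± 22.4 CPM, log2 fold change -0.52), Cebpb (-0.65) and Nr0b2 (-0.71) were called lower and none higher. Of the fasting-induced genes described here, Angptl4 (-0.91) and Vnn1 (-1.10) were called lower, and no gene of that list was called higher. The list as a whole did not move in 1 direction. Of its 12 genes, 6 had positive and 6 had negative estimates, around a median of -0.078. With the name form in the fit, Fgf21 (-1.20) and Acadm (-0.37) were called lower as well.

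Genes most alike to Pdha1 across the 6 libraries, among 7884 genes with a mean of at least 10 CPM, were Tppp (Pearson r = 0.996 of log2 CPM), 4931406C07Rik (0.993) and Sypl (0.993). Those most alike to Pdk4 were Arhgef40 (0.978), Fam53c (0.967) and Mdfic (0.965). For Pdk4 all 3 peaked in AAV8-TBG-Cre replicate 2, with Mdfic at 34.1 CPM there and 22.6 to 30.7 CPM in the other libraries. These coefficients describe 6 points that share their libraries with the gene and were picked as the highest of many.

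Markers of other liver cells differed between the groups beside these genes. All 8 cholangiocyte markers were called higher, with summed levels of 72.2 to 128.2 CPM in controls and 305.9 to 574.1 CPM in AAV8-TBG-Cre livers, the highest in replicate 2. Of these sums Spp1 alone gave 38.0 to 89.0 CPM in controls and 219.0 to 456.7 CPM in AAV8-TBG-Cre livers. Of 7 macrophage markers 5 were called higher (sum of all 7, 169.2 to 194.0 against 237.1 to 320.9 CPM). Clec4f (log2 fold change 0.29) and Marco (-0.75) were not called. Of 6 stellate cell markers 3, Col1a1, Col3a1 and Pdgfrb, were called higher (sum of all 6, 181.0 to 267.7 against 359.4 to 773.5 CPM). Lrat (-0.25), Des (0.13) and Dcn (0.38) overlapped between groups and were not called. Both sums were again highest in replicate 2. The 6 endothelial markers summed to 122.2 to 188.2 CPM in controls and 123.0 to 146.8 CPM in AAV8-TBG-Cre livers, and 1 of them, Stab2, was called lower. All 3 neutrophil markers tested were called higher, as were Cd8a of 2 T and NK cell markers tested (not with the name form in the fit) and Cd79a, the 1 B cell marker tested, and of 3 adipocyte markers tested Cfd was called lower. The 4 lists of neutrophil, T and NK, B and adipocyte markers summed to at most 32.9 CPM in any library, and no listed marker of any cell type was at 0 in all libraries.

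Of the 8 hepatocyte markers Cps1 was called higher and Ttr lower, and they summed to 85060 to 106200 CPM in controls and 73460 to 94690 CPM in AAV8-TBG-Cre livers. The part of these shifts in cell markers in the lower levels of Pdha1, Dlat, Pdk1, Pdp2 and Mpc1 and in the higher level of Pdp1 was not tested.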

How the data were processed

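Gene expression was measured by bulk RNA-seq in 6 livers, grouped by the vector in the labels. The authors deposited an expected count for each transcript (an estimate that need not be whole, not normalized) and FPKM per transcript and per gene. The submitters' processing notes name mm10, HISAT2, Bowtie2 and RSEM, while STAR, HTSeq and DESeq2 stand in the study's methods, and versions are not given in the sources used here.

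Expected counts were summed per NCBI gene ID and rounded. Genes passing filterByExpr were tested with the quasi-likelihood test of edgeR 4.0.16 (R 4.3.3, TMM normalization, vector as the only factor), checked on simulated counts. A gene was called at an unadjusted p under 0.05 and a fold of at least 1.2, the study's threshold. Benjamini-Hochberg adjustment covered all genes tested. Ratios of FPKM were tested by exact permutation. Counts carry counting error, which is large near 1 CPM.

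For the alternatives, the scaling was upper quartile or RLE, the filter was dropped or set to 10 counts per library, the fit took a replicate block or the library name form, the tool was DESeq2 1.42.0, or the fold was 1.5. limma 3.58.1 (trended prior) was run on log2(FPKM + 1), filtered (0.5 FPKM or more in 3 or more libraries) or not, and on log2(FPKM + 0.1), filtered. DESeq2 and limma also changed which genes were tested. Ratios were also taken from CPM and with 0.1 added, and each library was left out.

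All 10 genes are named, with genes called in lists of pathways and cell markers (some results of these lists are not reported here), the 3 genes most alike to Pdha1 and to Pdk4, and Mettl14. The genes and lists were chosen with earlier results of these data known. No 2 libraries of a group matched to within counting error (chi-square per gene of 25.8 or more). Coordinates and promoters are from RefSeq on GRCm38.p6, the assembly of mm10. GGACT matches are from GENCODE vM1 transcripts on NCBIM37. Protein sequences were not used here. Sample columns matched to no sample numbered 0.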

Additional observations from a re-analysis of the deposited data

How the results depend on the processing

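Of the alternatives, DESeq2, RLE, upper quartile scaling, no filter, a minimum of 10 counts, the replicate block and the name form each called 5 of the 10 genes lower and 1 higher. The limma fits on log2(FPKM + 1), log2(FPKM + 0.1) and log2(FPKM + 1) without a filter called 1 lower (Pdha1), and the first 2 called 0 higher, because Pdp1 did not pass their filter. A fold of at least 1.5 left 2 lower, Pdk1 and Pdp2, while Pdha1, at 0.677 of the control mean, fell short of it. Leaving out each library gave 1 (without AAV8-TBG-GFP replicate 1) to 6 (without AAV8-TBG-Cre replicate 1) lower. Genes under an adjusted p of 0.05 numbered 3 in DESeq2, 1 without a filter, and 0 to 3 with a library left out (3 without AAV8-TBG-Cre replicate 1). The Pdk4 to Pdk2 ratio ranged from -0.77 (without AAV8-TBG-Cre replicate 2) to 0.79 with a library left out.

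Signs reversed for Pdk4 under the replicate block (-0.18), the name form (-0.24) and log2(FPKM + 0.1) (-0.022), and it ranged from -0.93 to 0.49 with a library left out. Mpc2 became 0.053 under upper quartile scaling, 0.0070 with a minimum of 10 counts and 0.15 in the 3 limma fits (0.1539, 0.1548 and 0.1539), and -0.12 to 0.076 with a library left out. Pdhb ran from -0.33 to 0.0020. The cause was not tested.

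Over all genes, adjusted calls numbered 125 in edgeR, 1157 in DESeq2, 372 without a filter, 76 with a minimum of 10 counts, 66 under upper quartile scaling, 214 with the name form, 22, 27 and 9 in the 3 limma fits, and 0 to 928 with a library left out. Unadjusted calls were 1618 higher and 1129 lower, 1922 and 737 under upper quartile scaling, and 1880 and 365, 1995 and 376, and 2019 and 364 in the limma fits. Correlations of deviations were 0.07, -0.29 and 0.24 for matched replicate numbers 1, 2 and 3, and -0.342 to 0.351 for unmatched numbers. The matched numbers thus did not stand out, though so few libraries cannot exclude a pairing. A replicate block lowered the adjusted calls to 7. With 3 mice per group, exact tests cannot go below 0.1.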
